A study of Homo sapiens with 18 samples.

Results

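The genes of the cytosolic ribosomal proteins were taken as a reference for promoters without DNA-methylation, in which the background of each MBD kit can be read. Members were the autosomal protein-coding genes whose symbol is RPL or RPS followed by a number, without kinases, pseudogenes and -like genes. This gave 69 members of 19222 autosomal protein-coding genes, 40 of the large (RPL) and 29 of the small subunit (RPS), and left out 3 such genes on the X chromosome. The study held 18 samples from 3 established human cancer cell lines, HCT15 (colorectal), DU145 and PC3 (both prostate). Genomic DNA of each line was captured once with each of 5 kits, MethylMagnet, MethylCollector, MethylCollector Ultra, MethylCap and MethylMiner, and sequenced (MBD-seq, 15 libraries), and each line was assayed once by reduced representation bisulfite sequencing (RRBS, 3 libraries). No agent or genetic change was applied, and the groups differ by line and kit. Per the methods, DU145 came from another source than HCT15 and PC3 and was collected at a later passage. Each kit followed the protocol of its manufacturer, and libraries were pooled for sequencing in lanes. Effects of line cannot be told apart from those of source and passage, nor effects of kit from those of its elution protocol. A kit was used once per line, its replicates are therefore the 3 different lines, and p-values for kits measure the spread between these single libraries. The p-values for promoters between lines measure the counting of reads only.

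Ribosomal proteins assemble with ribosomal RNA into the ribosome, and every growing cell transcribes their genes at a high rate. Their promoters typically lie in CpG islands, and methylation of such islands goes with silencing, so a dividing cell is expected to keep them unmethylated. RRBS gives the share of methylated reads at single CpGs, whereas a methyl-CpG binding domain (MBD) pulls down whole fragments with several methylated CpGs and should leave unmethylated promoters behind.

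The promoter of a member was the window of 500 bp on either side of its 5′ end on GRCh37. The windows held a median of 67 CpGs against 59 for all autosomal genes (67 for both at the principal transcripts), and 59 of the 69 members were in the CpG-dense class (GC content of at least 50% and observed over expected CpG of at least 0.6). For 12 members, among them RPL22, RPS26, RPL6, RPS29, RPL4, RPL36, RPS27A, RPL3, RPL15, RPL7 and RPL30, the 5′ end of the annotated gene record lay more than 500 bp from that of its principal transcript. Windows at the principal transcript held between 35 and 113 CpGs. Results are for the gene record, and those for the principal transcript are given beside them where they differ.

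The libraries differed widely in depth, from 9876 autosomal fragments (MethylMagnet, DU145) to 7163312 (MethylMiner, HCT15), so the values of the small libraries rest on few fragments. At CpGs methylated in a single line by RRBS, 12 of the 15 libraries were deepest over the CpGs of their own line, and none of the 3 MethylMiner libraries was. In PC3 the RRBS rows ended early on chromosome 21 and chromosome 22 was not among them, which leaves RPL3 without a value there.

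The promoter of RPL13, a protein of the large subunit, is shown as an example of a CpG-rich window without methylation, with the sequences CCGG and TCGA in capitals. It covers chr16:89626790-89627084 (GRCh37, plus strand), the bases just upstream of the first annotated exon. The promoter of RPL28, also of the large subunit, lies at chr19:55897100-55897299 on the plus strand and holds both sequences.
RPL13: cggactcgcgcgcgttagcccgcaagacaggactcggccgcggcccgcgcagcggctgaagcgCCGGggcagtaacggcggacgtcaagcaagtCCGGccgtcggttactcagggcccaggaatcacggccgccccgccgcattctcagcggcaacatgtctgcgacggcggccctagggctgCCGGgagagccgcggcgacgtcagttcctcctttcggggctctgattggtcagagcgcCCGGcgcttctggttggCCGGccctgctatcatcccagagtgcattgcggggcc
RPL28: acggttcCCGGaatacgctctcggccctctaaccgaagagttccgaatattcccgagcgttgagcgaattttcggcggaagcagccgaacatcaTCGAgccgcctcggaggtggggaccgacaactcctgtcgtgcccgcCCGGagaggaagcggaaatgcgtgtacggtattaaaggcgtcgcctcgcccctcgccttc
In the RPL13 sequence 5 CpGs within CCGG were scored, with mean levels of 51.8% in HCT15, 51.9% in DU145 and 52.0% in PC3. They are those of the first 4 capital stretches and the CpG at the first base, printed in lower case because its CCGG starts before the sequence, while the last capital stretch had no scored CpG. The 28 other scored CpGs had means of 0.745%, 0.567% and 0.649%, and no level among them exceeded 5.48%. In RPL28 the 3 CpGs of the marked sites lay between 48.1% and 50% in HCT15 and between 30% and 65.8% in PC3, and the 2 scored in DU145 were at 46.7% and 55.2%. The other CpGs of RPL28 were at most 7.41% in HCT15, 0% in DU145 and at most 1.37% in PC3.

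The same division was seen over the members together. All 16 combinations of the bases before and after a CpG were compared in the principal windows, and CCGG and TCGA were singled out after their values were seen. In HCT15 the 304 CpGs in CCGG had a mean level of 51.4% and the 74 in TCGA one of 49.6%. In DU145 the means were 52.5% and 51.6%, and in PC3 they were 52.2% and 53.3%. The 14 other combinations had means between 0.66% and 2.92% in HCT15, between 0.62% and 3.85% in DU145 and between 0.53% and 3.88% in PC3, each with a median of 0. Of 307 CpGs in the 2 sites that were covered in every line, 241 lay between 20% and 80% in all 3 lines and 0 were at most 10% in all 3. Coverage was similar for both kinds, with medians of 35 and 31 reads in HCT15, 56 and 47 in DU145 and 40 and 37 in PC3 for CpGs inside and outside the sites.

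**Figure D1:**
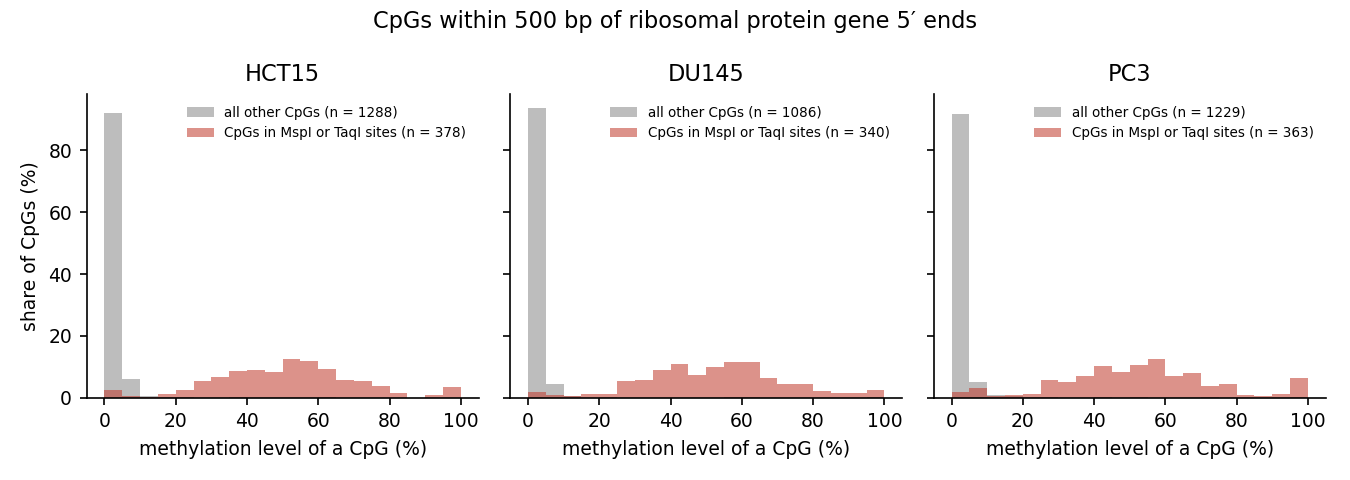
Distribution of the methylation level (x axis, %) of single CpGs with at least 10 reads within 500 bp of the principal 5′ ends, as a share of the CpGs of each kind (y axis, %), in 1 panel per line. CpGs in the sites CCGG and TCGA (red; 378, 340 and 363 CpGs in HCT15, DU145 and PC3) spread around 50%, while over 90% of the other CpGs (grey) fall in the lowest bin of 5 points.

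CCGG and TCGA are the recognition sequences of the restriction enzymes MspI and TaqI. The enzyme used for these RRBS libraries is not given in the sources used here, and the cause of the intermediate level was not tested. The pattern was not particular to ribosomal protein genes. Other autosomal promoters with a level of at most 5% outside the sites had mean levels of 51.3%, 51.9% and 52.0% inside them (HCT15, DU145 and PC3). In promoters of at least 90% outside the sites, the CpGs inside them had means of 93.0%, 94.2% and 93.0% against 94.6%, 95.9% and 94.7% for the others.

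With all CpGs, ribosomal protein promoters did not read as unmethylated. A window was scored with at least 5 CpGs of at least 10 reads, which 58 members reached in HCT15, 53 in DU145 and 55 in PC3. The median level was 12.4% in HCT15 (quartiles 9.52% and 17.1%), 12.3% in DU145 (10.2% and 16.7%) and 12.8% in PC3 (10.2% and 16.5%). At most 10% was measured for 15 of 58 members in HCT15 (25.9%), 13 of 53 in DU145 (24.5%) and 13 of 55 in PC3 (23.6%). Of all scored autosomal promoters, 29.1% met that limit in HCT15, 31.2% in DU145 and 27.4% in PC3. The limit runs through the bulk of the members, with RPL6 at 9.27% and RPL8 at 10.3% on its 2 sides in HCT15, RPS2 at 9.83% and RPL12 at 10.2% in DU145, and RPL35 at 9.80% and RPL14 at 10.1% in PC3.

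Outside the 2 sites nearly all members were close to 0. The median fell to 0.86% in HCT15 (54 scored members), 0.86% in DU145 (51) and 0.82% in PC3 (53). At most 10% was now measured for 53 of 54, 49 of 51 and 51 of 53 members, that is 98.1%, 96.1% and 96.2%, against 73.6%, 79.3% and 79% of all scored autosomal promoters. Among scored promoters of the CpG-dense class the shares were 78.1%, 83.8% and 83.8%. The members' shares stand beside these as a description, since a high share in constitutively active genes with CpG islands was the reason for choosing them. Levels of at least 50% were found for 19.0% of all promoters in HCT15, 10.2% in DU145 and 10.2% in PC3. Among the members only RPL37A in PC3 reached it (1 member), from 5 scored CpGs that all lay upstream of its 5′ end. Of the 51 members scored in all lines, 48 were at most 10% in each line and 36 were under 2% in each.

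With all CpGs the members kept a similar order in the 3 lines (Spearman's rho 0.91 over 53 members for HCT15 and DU145, 0.84 over 55 for HCT15 and PC3 and 0.90 over 52 for DU145 and PC3). Outside the sites rho was 0.17, 0.27 and 0.49. RPL13 read 7.13% in HCT15, 6.99% in DU145 and 6.95% in PC3, or 0.54%, 0.50% and 0.58% outside the sites. RPS13, a small subunit protein with 14 scored CpGs against 41 in RPL13, read 17.8%, 18.2% and 17.9%, and 0.50%, 0.36% and 0.71% outside them. Across members, the level rose with the share of reads that fell on the 2 sites (Spearman's rho 0.91 over 58 members in HCT15, 0.91 over 53 in DU145 and 0.88 over 55 in PC3, given as a description because both measures come from the same reads).

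**Figure D2:**
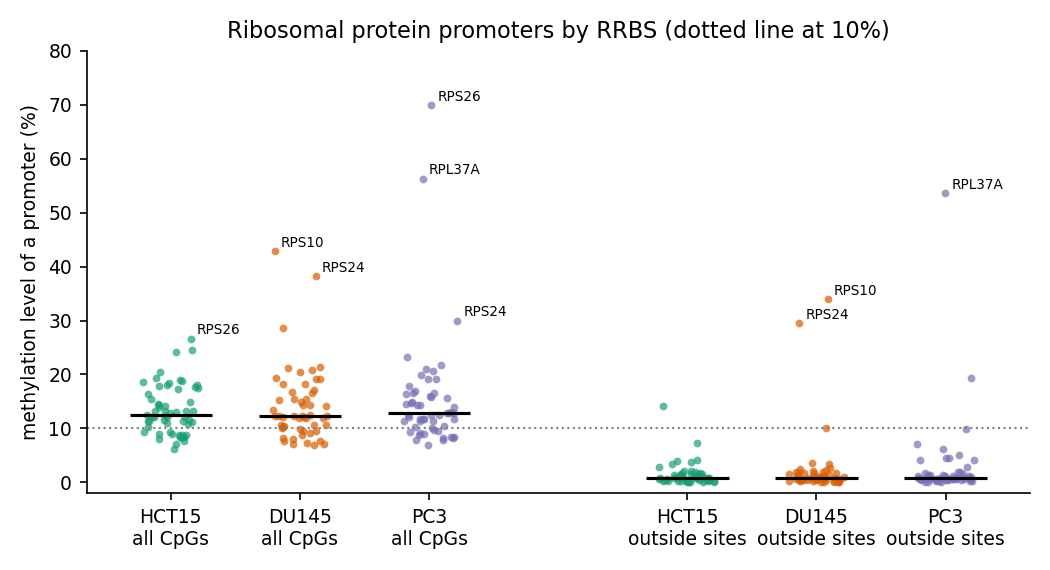
Methylation level of each scored ribosomal protein promoter (points; y axis, %) in the 3 lines, with all CpGs (left) and without those in CCGG or TCGA (right). Horizontal bars are medians and the dotted line marks 10%; the medians move from 12.3% to 12.8% on the left to 0.82% to 0.86% on the right, and RPS10, RPS24 and RPL37A remain above the others.

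Not every member could be read. In the gene-record windows 11 members were scored in no line, among them RPL22, RPL24, RPL3, RPL32, RPL36, RPL4, RPL41, RPS18, RPS27 and RPS27A. RPL34 and RPS3A were scored in HCT15 alone. At the principal transcript 62, 59 and 59 members were scored with all CpGs and 60, 58 and 58 outside the sites (HCT15, DU145 and PC3). There, all 60 in HCT15, 57 of 58 in DU145 and 57 of 58 in PC3 were at most 10%, the exceptions being RPS10 and RPL37A, against 75.02%, 81.1% and 80.8% of all scored autosomal promoters in such windows.

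The low level was a domain around and downstream of the 5′ end. In the first 250 bp downstream of the principal 5′ ends, reads outside the sites were 0.84% methylated in HCT15, 0.73% in DU145 and 0.79% in PC3. Over the same bases of all autosomal genes the levels were 12.6%, 7.36% and 7.45%. Up to 750 bp downstream the members stayed at or below 1.32%. Between 500 and 250 bp upstream they were at 1.82%, 3.51% and 6.61%, and from 2000 to 2250 bp downstream at 85.1%, 82.3% and 75.9%.

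**Figure D3:**
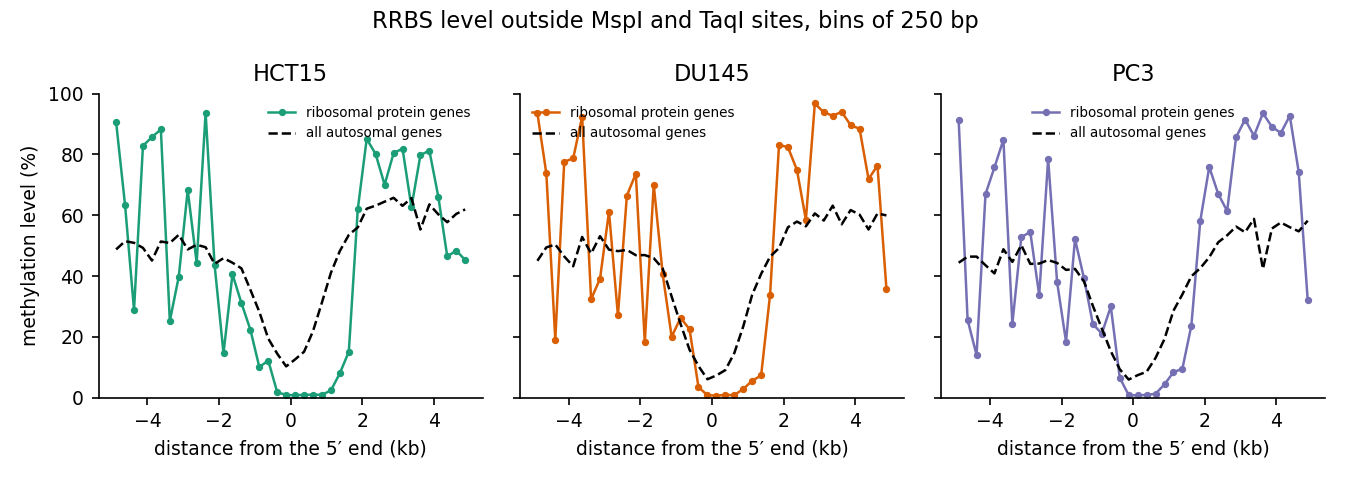
Methylation level (y axis, % of reads outside CCGG and TCGA) by distance from the principal 5′ end (x axis, kb, negative upstream) in bins of 250 bp, for ribosomal protein genes (coloured lines with points) and all autosomal genes (dashed), in 1 panel per line. The ribosomal protein genes lie at or below 1.32% from the 5′ end to 750 bp downstream and climb above 50% by 2 kb in each line.

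The CpGs outside the sites that reached 20% lay mostly at the upstream edge of the windows. Outside the sites, 10 of 1288 CpGs in HCT15, 16 of 1086 in DU145 and 21 of 1229 in PC3 had a level of at least 20%. Of these, 9, 13 and 19 lay more than 250 bp upstream of the principal 5′ end, and 0 lay more than 250 bp downstream in any line. The promoters of RPL37A and RPL37, large subunit proteins, and RPS10, a small subunit protein, are described because such CpGs differed between the lines there. The stretch of RPL37 is shown as an example of such an upstream edge, with capitals for CpGs outside the sites that reached 20% in at least 1 line. It lies at chr5:40835645-40835824 (GRCh37, minus strand) and overlaps no annotated exon.
RPL37: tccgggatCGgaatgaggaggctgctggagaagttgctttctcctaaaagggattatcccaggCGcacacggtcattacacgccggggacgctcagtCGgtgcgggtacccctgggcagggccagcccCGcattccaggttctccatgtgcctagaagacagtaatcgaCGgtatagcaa
In RPL37A 4 CpGs outside the sites, 351 to 312 bp upstream, had between 29.8% and 92.9% methylation in PC3, and at most 7.41% in HCT15 and 4.26% in DU145. The next CpG outside the sites, 242 bp upstream, was at 0% in all 3 lines with 56, 84 and 40 reads. In RPL37 the outermost marked CpG was at 21.7% in HCT15, 55.9% in DU145 and 96.5% in PC3. In RPS10 the CpGs 498 and 470 bp upstream were at 96% in DU145, against 36.8% and 52.6% in HCT15 and 24% and 28% in PC3.

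Few members differed between lines. Promoters were compared by Fisher's exact test on the reads of CpGs covered in both lines, adjusted over all scored autosomal promoters, and called at an adjusted p under 0.05 and a difference of at least 10 percentage points. With all CpGs, 2 of 53 members were called between HCT15 and DU145 (3.77%), 3 of 55 between HCT15 and PC3 (5.45%) and 2 of 52 between DU145 and PC3 (3.85%). Of all promoters, 20.7%, 20.7% and 16.1% were called in these pairs. Outside the sites, 3 of 51, 2 of 53 and 2 of 51 members were called (5.88%, 3.77% and 3.92%), against 20.5%, 20.8% and 15.7% of all promoters. The tests weigh reads, not cultures, since each line had 1 RRBS library. Reads were summed over CpGs, so a read across several CpGs counted at each of them. Intervals and p-values take these counts as independent, which overstates their precision where CpGs of a read vary together.

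RPL37A was 53.6% methylated in PC3 outside the sites (95% Wilson interval 47.9% to 59.2%, 293 reads), 3.69% in HCT15 (1.88% to 7.10%, 217 reads) and 1.37% in DU145 (0.59% to 3.17%, 365 reads). These reads are summed over 5 CpGs in each line. PC3 stood apart from both other lines (Fisher's exact test, adjusted p = 3.16e-37 and 2.32e-60). RPS10 was at 33.9% in DU145 (5 CpGs), but 7.28% in HCT15 and 4.10% in PC3 (16 CpGs each). Over the 5 CpGs covered in both, it was 18.7% in HCT15 and 33.9% in DU145 (Fisher's exact test, adjusted p = 0.0070), and 8.92% in PC3 against 33.9% (adjusted p = 6.73e-10). RPS24, of the small subunit, was at 14.2% in HCT15, 29.5% in DU145 and 19.4% in PC3. It was called between HCT15 and DU145 (Fisher's exact test, adjusted p = 6.20e-07). Over the 14 CpGs covered in both HCT15 and PC3 it was at 14.2% and 25.2% (Fisher's exact test, adjusted p = 5.67e-06). Its principal 5′ end is 103 bp further downstream, and there its levels were 0.33%, 4.76% and 1.18% and no pair was called. RPL7 was at 0%, 10.0% and 5.04%, with a call for HCT15 against DU145 over 5 CpGs (Fisher's exact test, adjusted p = 0.0020), and at its principal 5′ end, 2156 bp away, at 0%, 0.98% and 0.48%. RPS26 was called with all CpGs only, at 26.7% in HCT15 and 69.9% in PC3 (Fisher's exact test, adjusted p = 4.55e-15), from a window 567 bp from its principal 5′ end, where the levels outside the sites were 2.38%, 0.98% and 0.93%. With principal windows and without the 2 sites, RPL37A and RPS10 were the members that differed between any pair of lines.

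Related genes were compared by counts, outside the sites and in principal windows, where 75.02% of all scored autosomal promoters were at most 10% in HCT15, 81.1% in DU145 and 80.8% in PC3. Among the other autosomal ribosomal protein genes, such as RPLP0, RPLP1, RPLP2, RPSA and FAU, 6 of 6 scored were at most 10% in HCT15, 5 of 5 in DU145 and 6 of 6 in PC3. On the X chromosome RPL10, RPL39 and RPS4X were scored in HCT15 and DU145, and 3 of 3 were at most 10% in both. Of mitochondrial ribosomal protein genes, 67 of 69, 62 of 64 and 66 of 69 were at most 10%. Of 18 genes of ribosome biogenesis, 13 of 14, 14 of 15 and 14 of 15 were, and NOP58, a protein of small nucleolar particles, was the exception at 50.9%, 67.5% and 21.3%. Of the S6 kinase genes, which carry RPS in their symbol but encode kinases, 7 of 7, 7 of 7 and 7 of 8 were. Of the paralogs that the rule leaves out, 5 of 7 were at most 10% in each line, though not the same 5. RPL7L1 was at 4.10% in HCT15, 34.8% in DU145 and 11.8% in PC3. RPL10L, a retrogene of RPL10 used in the testis, was at 69.2% in HCT15, 95.2% in DU145 and 36.5% in PC3. RPL39L, a paralog of RPL39, was at 97.6%, 1.51% and 1.24%.

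Sequence features that the rule did not use were counted next. At the principal 5′ end 51 of 69 members (73.9%) start with a C followed by at least 4 pyrimidines, the start of the terminal oligopyrimidine tract through which translation of ribosomal proteins is controlled, against 4.53% of all autosomal promoters. The ETS core CGGAAG, read on both strands of the 250 bp upstream, was in 55.1% of members, 21.8% of all promoters and 28.7% of CpG-dense ones. In the same order, the Sp1 box GGGCGG was in 56.5%, 59.0% and 76.0%, CCGG in 85.5%, 72.6% and 89.0%, and TCGA in 34.8%, 20.9% and 24.7%, where CCGG and TCGA are palindromes and CCGG can share bases with CGGAAG.

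MBD-seq depth in the windows was then read as the background of each kit, as the mean depth over the members divided by the autosomal mean depth of the library. In HCT15, DU145 and PC3, the members held 406, 192 and 162 fragments of MethylMiner, 85, 27 and 35 of MethylCap, 30, 1 and 53 of MethylCollector Ultra, 19, 2 and 4 of MethylCollector and 10, 2 and 45 of MethylMagnet. Relative depth was highest with MethylMagnet at 5.19 ± 1.16 and lowest with MethylCap at 0.87 ± 0.28 (mean ± SD, n = 3 lines). MethylMiner reached 2.29 ± 0.43, MethylCollector 2.42 ± 0.67 and its Ultra version 1.47 ± 0.96. Over all autosomal promoters the means were 7.76 with MethylMagnet, 5.89 with MethylCollector, 4.02 with its Ultra version, 1.92 with MethylCap and 2.15 with MethylMiner. The members' mean was therefore below that of all promoters with each kit except MethylMiner, where the 2 were close. MethylMagnet in PC3 went the other way, with 6.34 at the members against 5.42. Of the variation in the members' depth between libraries, 84.7% lay between kits (exact permutation of kits within each line, p = 0.0026). MethylMiner did not stand apart from the mean of the other kits on this scale (difference -0.20, exact two-sided permutation test, p = 0.86, smallest possible p = 0.0080).

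A single window weighed on these values. RPL22, a large subunit protein, has its gene record start 9794 bp upstream of its principal 5′ end, and the window there, with 80 CpGs, held 5, 0 and 33 fragments of MethylMagnet, 15, 2 and 3 of MethylCollector, 13, 1 and 24 of MethylCollector Ultra and 23, 10 and 13 of MethylCap. That was 73.3% of the member fragments of MethylMagnet in PC3 and 78.9% of those of MethylCollector in HCT15. No RRBS CpG was covered in it. Its principal window held 0 fragments in the 12 libraries of these 4 kits and was at 0.32%, 0.09% and 0.35% by RRBS outside the sites. Without RPL22 the relative depth was 3.26 ± 1.82 with MethylMagnet, 2.24 ± 0.40 with MethylMiner, 0.65 ± 0.69 with MethylCollector Ultra, 0.53 ± 0.14 with MethylCap and 0.29 ± 0.26 with MethylCollector (SD, n = 3). MethylMiner was 1.06 above the other kits (exact permutation p = 0.30).

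At the principal 5′ ends MethylMiner had a depth of 2.11 ± 0.36 and MethylCap one of 0.29 ± 0.05, beside 3.12 ± 1.84 with MethylMagnet, 0.57 ± 0.65 with MethylCollector Ultra and 0.47 ± 0.48 with MethylCollector (SD, n = 3). MethylCap rested on 46, 11 and 12 fragments, where an even spread over the autosomes would give 118, 24.6 and 28.6. Its ratio of observed to even counts ranged from 0.39 in HCT15, with an exact Poisson interval of 0.29 to 0.52, to 0.45 in DU145, with one of 0.22 to 0.80. In PC3 the interval was 0.22 to 0.73. With MethylMiner the intervals were 1.56 to 1.92, 1.70 to 2.31 and 2.02 to 2.80. The intervals cover counting error only, and those of the 2 kits do not overlap in any line. MethylMagnet had 5, 2 and 12 fragments and MethylCollector 5, 0 and 2, and in HCT15 their ratios had intervals of 0.92 to 6.63 and 0.21 to 1.48. A count of 0, as for MethylCollector and MethylCollector Ultra in DU145, had an exact Poisson interval of the ratio that reached 4.25 and 4.10. In these libraries 3 fragments would give a relative depth of 3.99 and 3.90.

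Set against promoters of at least 80% methylation by RRBS in the same line (2114, 1054 and 910 in HCT15, DU145 and PC3), MethylMiner stood apart from the other kits. With MethylMiner the members had 93.2 ± 8.08% of the depth of methylated promoters, and 83.6 ± 10.3% at the principal 5′ ends (SD, n = 3). With MethylCap the values were 10.3 ± 2.81% and 3.28 ± 0.34%, and with MethylMagnet 11.0 ± 4.69% and 6.02 ± 4.14%. MethylCollector gave 6.84 ± 2.84% and 1.14 ± 1.26%, its Ultra version 7.42 ± 5.59% and 2.73 ± 3.33%. In DU145 both had 0 fragments at the principal 5′ ends and entered as 0%, where 3 fragments would give 11.7% and 17.7%. Leaving out PC3 moved MethylCollector Ultra in gene-record windows from 7.42% to 4.24%, and its relative depth from 1.47 to 0.94. In gene-record windows the 3 MethylMiner libraries, at 96.2%, 84.1% and 99.5%, lay above all 12 others, the highest of which was MethylMagnet in PC3 at 15.6%. At the principal 5′ ends they were at 91.4%, 71.9% and 87.4%, and the highest of the others was MethylMagnet in DU145 at 10.8%, from 2 fragments. The difference of 84.3 percentage points from the other kits, and 80.3 at the principal 5′ ends, had the smallest p the test can give (exact permutation test added after seeing the data, p = 0.0080). MethylMiner was singled out with earlier results of these data known, so this p describes the separation and is no independent test of the kit.

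**Figure D4:**
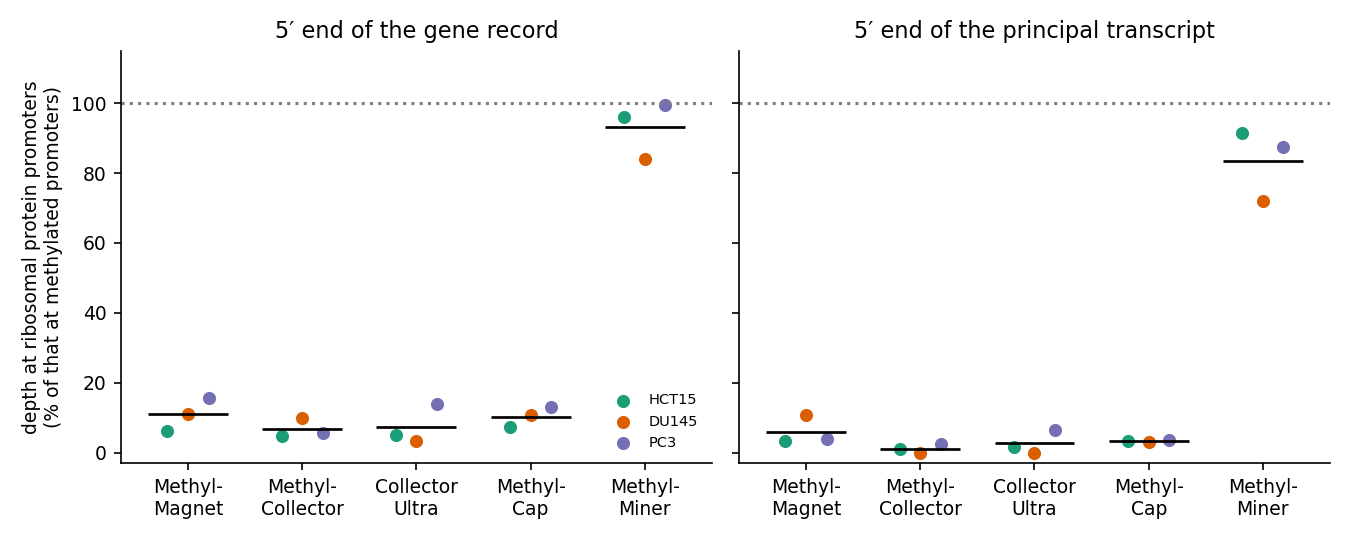
Depth at ribosomal protein promoters as a percentage of the depth at promoters of at least 80% methylation in the same library (y axis, linear), for the 5 kits (x axis) at the 5′ end of the gene record (left) and of the principal transcript (right). Points are libraries coloured by line, bars are means of 3 lines and the dotted line marks equal depth. MethylMiner sits between 71.9% and 99.5%, every other library at or below 15.6%. On the right, MethylCollector and MethylCollector Ultra in DU145 had 0 fragments.

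Members without any fragment were counted for the 2 kits with the most fragments. For MethylCap 43, 54 and 55 of the 69 gene-record windows were empty (62.3%, 78.3% and 79.7%), against 45.8%, 69.1% and 69.4% of all autosomal promoters. For MethylMiner 1, 6 and 11 were empty (1.45%, 8.70% and 15.9%), against 4.31%, 16.4% and 22.5%.

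Around the principal 5′ ends MethylCap depth was at most 0.39 times the library mean in each bin from 250 bp upstream to 1250 bp downstream, where RRBS levels were at most 8.42%. Further upstream the measures did not keep the same order, as in HCT15, where depth was 2.54 times the mean at an RRBS level of 10.1% (1000 to 750 bp upstream) and 2.24 times at 31.2% (1500 to 1250 bp upstream). These RRBS levels rest on 43 and 40 covered CpGs, whereas depth was averaged over all 69 members. The 2 measures therefore cover different bases, and their orders cannot be compared directly. Depth was 2.24, 2.57 and 3.54 times the library mean at 1500 to 1250 bp upstream, 0.89, 0.50 and 1.04 times at 500 to 250 bp upstream, and at most 0.03 times at 250 to 500 bp downstream (HCT15, DU145 and PC3). Depth rose to 2.63, 2.03 and 2.75 times from 2000 to 2250 bp downstream. MethylMiner depth was above the mean around the 5′ end, with 1.86, 2.21 and 2.70 times the mean in the first 250 bp downstream and 1.79, 1.27 and 1.70 times at 2000 to 2250 bp. Over all autosomal genes MethylCap was at 2.30, 2.13 and 2.13 times in the first 250 bp and MethylMiner at 1.97, 2.83 and 3.23 times.

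**Figure D5:**
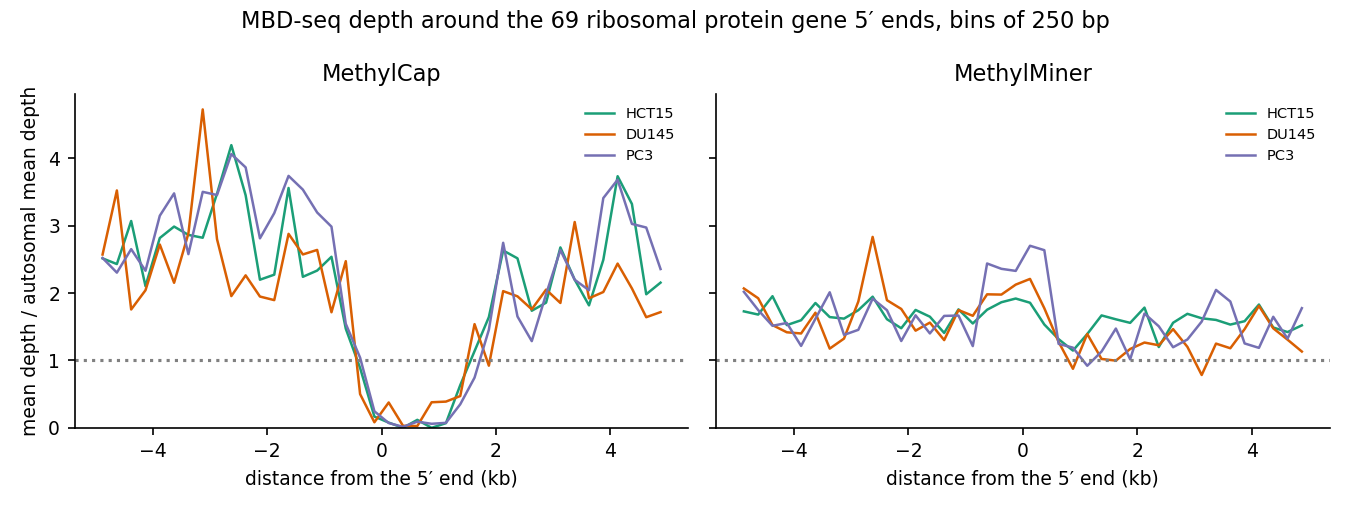
MBD-seq depth around the 69 principal 5′ ends (y axis, mean depth over the autosomal mean depth of the library; dotted line at 1) by distance in kb, negative upstream, in bins of 250 bp, for MethylCap (left) and MethylMiner (right) in the 3 lines. MethylCap falls to at most 0.03 at 250 to 500 bp downstream in each line, while MethylMiner is at 1.86 to 2.70 in the first 250 bp downstream.

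Among the members, MethylMiner depth varied with few fragments behind each value. The highest means over 3 lines in gene-record windows included 8.00 for RPL8, 5.59 for RPL22, 4.98 for RPS21 and 4.84 for RPS24. In principal windows these genes, in the same order, had 6.54, 4.00, 4.98 and 4.85 times the library mean. Against their own flanks of 1 Mb the values were 1.84, 1.62, 1.71 and 1.07, so much of this height was shared with the region. RPL8, of the large subunit, had 7, 9 and 11 fragments (relative depth 1.95, 6.42 and 15.6), so PC3 was the highest and HCT15 the lowest, while RPS21, of the small subunit, had 15, 5 and 5 (4.53, 4.42 and 5.98). RPS24 rested on PC3, with 10 fragments there and 4 and 1 in HCT15 and DU145. The lowest included RPL27 at 0.30, RPL23 at 0.46, RPL34 at 0.48 and RPS27A at 0.64, with between 0 and 3 fragments per library. Against flanks their principal windows were at 0.16, 0.22, 0.73 and 0.50. RRBS levels of RPL8 outside the sites were 1.26%, 0.86% and 0.54%.

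The members with most MethylCap fragments were RPL22 with 46 over the 3 lines, RPL36 with 18, RPL31 with 12 and RPL3 and RPL29 with 7 each, all of the large subunit. For RPL36, whose gene record starts 15348 bp from its principal 5′ end, the fragments fell to 2 at the principal window, and for RPL3 to 1. RPL6, of the large subunit, went the other way, from 0 fragments to 5, 1 and 2 at its principal 5′ end, 9233 bp away, where its levels outside the sites were 3.06%, 6.503% and 4.79%. The CpG 133 bp upstream of that end was among those of at least 20% in DU145 and PC3, with 43.9% in PC3. The principal window of RPL36 was at 1.16%, 1.63% and 3.11% outside the sites. RPL31 kept its 12 fragments, 9 of them from HCT15 and 3 from PC3, while its scored CpGs outside the sites read 0.63%, 0% and 1.93%. RPL37A, methylated in PC3 at 4 CpGs, had 1, 0 and 0 MethylCap fragments, and RPS10 had 1, 1 and 0. An even spread would give 118, 24.6 and 28.6 MethylCap fragments over all 69 windows together. Such counts in a single window are therefore too few to show whether it was captured.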

How the data were processed

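MBD-seq signal was deposited by the authors as depth (coverage) of non-duplicate fragments in runs along the genome. Per the labels and methods, read pairs were mapped with Bowtie to hg19 and kept when unique and close together, duplicates were collapsed, and the depth was not scaled. The RRBS files deposited by the authors give 2 counts for each CpG, its methylated reads and its coverage, summed over the strands by a custom pipeline, and start at 6 reads. Members, lists and the contrast of MethylMiner with the other kits were chosen with earlier results of these data known.

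Protein-coding genes were taken from GENCODE 44 on GRCh37. The separation of CCGG and TCGA was chosen after all 16 contexts were seen. A window was 500 bp on either side of the 5′ end of the gene record, or of the principal transcript (Ensembl canonical, otherwise APPRIS). Its level was methylated over all reads of CpGs with at least 10 reads, scored with at least 5 CpGs. Depth in a window was divided by the autosomal mean of its library. Fragments were counted as rises in depth, and their intervals are exact Poisson at 95%. Coverage per CpG had a median of 31 to 56 reads in the members' principal windows. Intervals of levels are Wilson intervals, and both kinds cover counting error only. Wilson intervals and Fisher's tests treat the counts of neighbouring CpGs as independent. Lines were compared with Fisher's exact test and Benjamini-Hochberg adjustment, and kits with exact permutation within lines. Named genes were the members called between lines, those scored in at most 1 line, those next to the limit of 10%, the 5 highest and 5 lowest by MethylMiner depth and the 5 with most MethylCap fragments. Members at 10% or more in any line also fell under that rule. With all CpGs these are most members, so they are given by counts. RPL28, RPS13, RPL37, NOP58, RPL7L1, RPL10L and RPL39L were chosen after their values were seen. Alternatives were other windows, coverage and CpG minimums, references and members, and each line left out. The software was pysam 0.24.0, scipy 1.17.1, pandas 2.3.3 and numpy 2.4.6 under Python 3.11.15, tested on simulated data. The labels give ATCC as the source of all 3 lines, and the methods another source for DU145. Some items that fell under these rules are not reported here.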

Additional observations from a re-analysis of the deposited data

How the results depend on the processing

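The contrast of MethylMiner with the other kits in relative depth had no stable sign. It was -0.20 as reported, but 0.99 at the principal 5′ ends, 0.39 against flanks of 1 Mb, 0.93 for members at most 10% outside CCGG and TCGA in all lines, 1.06 without RPL22, 0.22 on a log2 scale and 1.74 at the principal 5′ ends on that scale, with p from 0.128 to 0.76, and leaving out a line gave -0.26 to -0.17. The kit effect ranged from 83.6% to 92.5% when a line was left out, and without HCT15 its p was 0.083 (89.4%). Under the other settings it ranged from 57.6% (the 9 members at most 10% in all lines) to 93.4% (fragments in place of depth), with 65.7% within 250 bp, 69.1% at the principal 5′ ends and 71.5% without RPL22, and p stayed below 0.05. Without the block by cell line (no replicate block) the kit effect was 84.7% with p = 0.00075 and the MethylMiner contrast -0.20 with p = 0.88, by permutation. The cause of these changes was not tested.

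The set of members at most 10% in all lines with all CpGs held only 9 members. Relative depth of MethylMagnet was 3.12 at the principal 5′ ends, 2.37 against 1 Mb flanks, 9.49 for these 9 members and 3.26 without RPL22. MethylCollector gave 3.73 within 250 bp, 0.47 at the principal 5′ ends, 0.94 against flanks, 0 for members at most 10% in all lines, 0.19 for those outside the sites and 0.29 without RPL22. MethylCollector Ultra gave 0.49 for members at most 10%. MethylCap gave 1.23 within 1000 bp, 0.29 at the principal 5′ ends, 0.39 against flanks, 0.43 and 0.40 for members at most 10% with all CpGs and outside the sites, and 0.53 without RPL22, and MethylMiner 1.47 against flanks. As a percentage of methylated promoters, windows of 1000 bp gave 19.0 for MethylCap, 16.5 for MethylMagnet, 13.0 for MethylCollector Ultra and 9.82 for MethylCollector, and 250 bp gave 7.02 for MethylCap. The principal 5′ ends gave 6.02, 1.14, 3.28 and 83.6 for MethylMagnet, MethylCollector, MethylCap and MethylMiner, and leaving out RPL22 gave 0.76 for MethylCollector and 6.27 for MethylCap.

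The median level in HCT15 was 12.8% at a coverage of 20, 11.7% within 250 bp, 14.2% within 1000 bp, 12.7% at the principal 5′ ends, 12.7% with at least 1 CpG and 12.1% with at least 10. In DU145 it was 11.7% within 250 bp, 15.1% within 1000 bp and 13.3% as a mean over CpGs, and in PC3 12.1% and 14.2% within 250 and 1000 bp. Outside CCGG and TCGA the medians were 0.86%, 0.86% and 0.82%, and 0.90%, 0.85% and 0.81% at the principal 5′ ends, with 53, 49 and 51, and 60, 57 and 57 members at most 10%. Within 1000 bp, 8 members were at most 10% in PC3. Calls between HCT15 and DU145 fell to 0 at a coverage of 20 and within 250 bp, and to 1 at the principal 5′ ends (with or without the sites), as a mean over CpGs and with at least 10 CpGs. Between HCT15 and PC3 they fell to 1 within 250 bp, at the principal 5′ ends (with or without the sites) and with at least 10 CpGs. Between DU145 and PC3 they were 0 within 250 bp and with at least 10 CpGs, and 4 within 1000 bp. Of all comparisons with an alternative, 147 stayed within the spread between lines, on the same side of the threshold or within 1.5 times a count, 46 moved further, 6 reversed, 14 became weaker or lower and 7 stronger or higher. Where the spread is wide this allows large changes: MethylCollector Ultra fell from 1.47 to 0.57 in relative depth and from 7.42% to 2.73% of methylated promoters at the principal 5′ ends. The libraries with few fragments limit the kit values, and RRBS had 1 library per line.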
